A study of Mus musculus with 12 samples.

Results

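Gpx1, the cytosolic glutathione peroxidase of mouse, was followed through ribosome footprints and total mRNA of mouse liver. It was taken as the row of that symbol (NM_008160.6) in each of 4 deposited tables, and is 1 of the 23 selenoprotein genes they list. The TrspA37G livers were from FVB/N mice carrying 20 copies of a transgene for a mutant selenocysteine (Sec) tRNA, fed 0, 0.1 or 2.0 ppm selenium. The wild-type livers set against them were from FVB/N mice on the same 3 diets. All diets lasted 6 weeks. The labels give an age of 3 weeks, which is shorter than the diet and so cannot be the age at sampling. The sources used here do not say whether the transgenic mice keep their own Sec tRNA gene, nor how many mice went into each library. Each genotype and diet has 1 footprint and 1 mRNA library, so the 12 libraries form 12 groups with no replicates.

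Gpx1 reduces hydrogen peroxide and lipid hydroperoxides with glutathione, and is abundant in hepatocytes. Its catalytic residue is Sec, which is inserted at a UGA codon by the Sec tRNA with the help of a hairpin in the 3' untranslated region, the SECIS element. Without that insertion UGA is a stop codon, and a stop codon upstream of an exon junction can expose an mRNA to nonsense-mediated decay. Gpx1 is known as a selenoprotein whose mRNA and protein respond strongly to selenium supply. The TrspA37G tRNA lacks a modified base next to its anticodon, isopentenyladenosine, and is known as a means to lower the synthesis of stress-related selenoproteins in mice.

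The Gpx1 gene lies on chromosome 9, on the plus strand (GRCm38, GENCODE M21, transcript ENSMUST00000082429.6, used for structure only because the deposited values were made on mm9). Its coding sequence has 201 codons. The UGA for Sec is codon 47, in exon 1 of 2, 105 nt before the exon junction. In 15 of the 23 genes the UGA likewise precedes the last junction of the mRNA. The deposited values split the coding sequence into a 5' window (codons 16 to 41), a 3' window (codons 48 to 197) and 18 nt between them, taken as the 6 codons that end with the UGA. The placement was inferred from the window lengths and was not tested. The bases of these zones are shown because every result on Gpx1 footprints refers to them. They are given 5' to 3' as DNA with the UGA codon in capitals.
Gpx1 5 prime window, chr9:108339358-108339435: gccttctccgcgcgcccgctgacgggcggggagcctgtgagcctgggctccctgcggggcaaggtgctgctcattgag
Gpx1 between the windows, chr9:108339436-108339453: aatgtcgcgtctctcTGA
Gpx1 start of the 3 prime window, chr9:108339454-108339513: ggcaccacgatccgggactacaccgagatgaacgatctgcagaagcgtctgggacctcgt

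The 30 bases around the UGA are set beside those of Gpx3 (the secreted glutathione peroxidase), Gpx4 (the phospholipid hydroperoxide peroxidase) and Sepx1 (a methionine sulfoxide reductase), which are compared with Gpx1 below. Here the capitals mark the UGA and the base after it. That base is G in 12 of the 23 genes.
Gpx1 UGA context, chr9:108339436-108339465, plus strand: aatgtcgcgtctctcTGAGgcaccacgatc
Gpx3 UGA context, chr11:54907241-54907270, plus strand: aacgtagccagctacTGAGgtctgacagac
Gpx4 UGA context, chr10:80054722-80054751, plus strand: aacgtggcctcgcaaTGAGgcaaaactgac
Sepx1 UGA context, chr17:24740143-24740172, plus strand: ggacaatcaagattcTGAAtatttagcagc

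The 6 footprint libraries had 17763406 to 30296837 mapped reads each and the 6 mRNA libraries 10669213 to 16709701, as inferred from the deposited values. Values are read densities, scaled by the authors to region length and library depth, and called RPKM for mRNA and RPFKM for footprints. Whole reads were recovered from them, and Gpx1 rested on 4642 to 35278 mRNA reads and 4464 to 47357 coding-sequence footprints per library. A ratio of 2 libraries was called higher or lower where it was at least 1.5-fold and its 95% interval excluded 1. These intervals cover counting error only, not variation between mice. The tables hold selenoproteins alone. Of the genes typical of liver, Sepp1 (the selenium carrier that hepatocytes secrete) had 1494 to 3045 RPKM and Dio1 (the deiodinase of liver) 28.8 to 134.9 RPKM.

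Gpx1 mRNA was lower in TrspA37G than in wild-type liver on every diet, and lower without selenium in both genotypes. It had 351, 1125 and 1185 RPKM in TrspA37G liver at 0, 0.1 and 2.0 ppm. Wild-type liver had 893, 2327 and 2437 RPKM on the same diets. The highest TrspA37G value was thus below the wild-type values at 0.1 and 2.0 ppm and above the one at 0 ppm. TrspA37G liver was 2.54-fold lower at 0 ppm (95% interval 2.46 to 2.63), where 45% of 20 genes were called lower. It was 2.07-fold lower at 0.1 ppm (2.03 to 2.11) and 2.06-fold lower at 2.0 ppm (2.02 to 2.10), with 20% and 30% of genes called lower. As log2 ratios these were -1.35, -1.05 and -1.04 at 0, 0.1 and 2.0 ppm. The median of the 20 genes was itself -0.55, -0.23 and -0.43, so scaling to it makes the Gpx1 differences smaller. In bulk liver, less RNA per cell and fewer cells that hold it cannot be told apart. Without selenium the mRNA was 3.20-fold lower than at 0.1 ppm in TrspA37G liver (3.10 to 3.31) and 2.61-fold lower in wild type (2.56 to 2.66), in which 30% and 20% of genes were called lower. The diets of 2.0 and 0.1 ppm differed little: 2.0 ppm stood 1.05-fold above 0.1 ppm in TrspA37G liver (1.03 to 1.08) and 1.05-fold in wild type (1.03 to 1.06). The sign of these small differences turned with the scaling, to a log2 ratio of -0.016 in TrspA37G liver when scaled to 5 housekeeping selenoprotein genes and -0.014 in wild type when scaled to the median of the genes. Both diet comparisons of a genotype use its 0.1 ppm library.

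**Figure D1:**
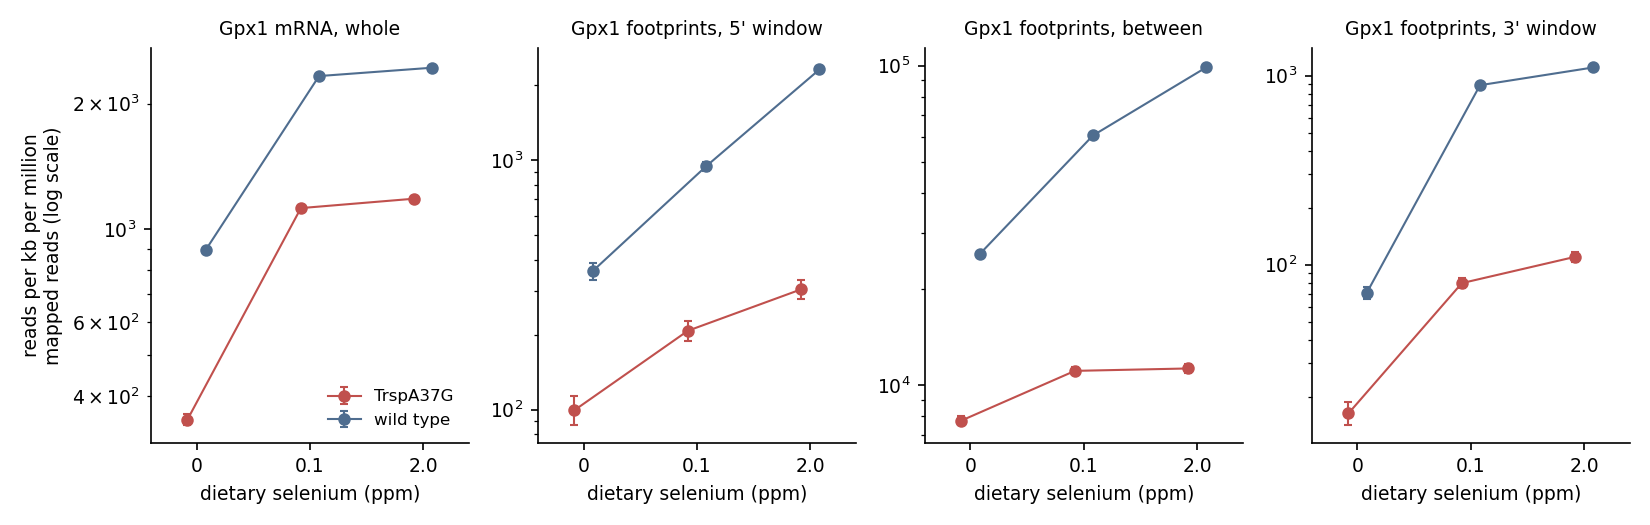
Gpx1 in each library (log axes, RPKM for mRNA and RPFKM for footprints) against dietary selenium in ppm, spaced as categories; points are single libraries, bars 95% counting intervals. TrspA37G is below wild type in all 4 panels, and mRNA at 2.0 ppm is 1.05-fold that at 0.1 ppm while 5' footprints in wild-type liver are 2.45-fold higher.

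Footprints on the 26 codons of the 5' window come from ribosomes that have not reached the UGA and were higher at each step of selenium in both genotypes. TrspA37G liver had 99.5, 207 and 304 RPFKM at 0, 0.1 and 2.0 ppm, against 359, 946 and 2316 RPFKM in wild-type liver. Every TrspA37G value was below every wild-type value. TrspA37G liver was 3.61-fold lower at 0 ppm (3.10 to 4.22), 4.57-fold lower at 0.1 ppm (4.14 to 5.05) and 7.62-fold lower at 2.0 ppm (6.94 to 8.37). Among the genes compared, 56.2%, 31.6% and 36.8% were called lower on these diets, and Gpx1 had the lowest ratio of all of them each time. Scaled to the median of the genes, the genotype log2 ratios were -0.96, -1.78 and -2.43 at 0, 0.1 and 2.0 ppm, in place of -1.85, -2.19 and -2.93, all still called lower. At 2.0 against 0.1 ppm the window was 1.47-fold higher in TrspA37G liver (1.29 to 1.66), short of a call, and 2.45-fold higher in wild type (2.32 to 2.58), where 10.5% of 19 genes were called higher. Without selenium it was 2.08-fold lower than at 0.1 ppm in TrspA37G liver (1.77 to 2.45) and 2.63-fold lower in wild type (2.41 to 2.88), with 44.4% and 31.6% of genes called lower. Scaled to the median of the genes, the TrspA37G libraries had a log2 ratio of -0.42 there, short of a call.

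Divided by the mRNA, the same footprints estimate how many ribosomes an mRNA carries ahead of the UGA. The quotient was 0.283, 0.184 and 0.257 in TrspA37G liver at 0, 0.1 and 2.0 ppm, against 0.403, 0.407 and 0.950 in wild-type liver. The wild-type liver at 2.0 ppm stood apart from the other 5. Its quotient was 2.34-fold that at 0.1 ppm (2.21 to 2.47) although the mRNA differed by 1.05-fold. TrspA37G liver was 1.42-fold lower at 0 ppm (1.22 to 1.66), short of a call, 2.21-fold lower at 0.1 ppm (2.00 to 2.44) and 3.70-fold lower at 2.0 ppm (3.37 to 4.07). The divisor is the whole mRNA. Within the 5' window, mRNA reads had 280, 845 and 928 RPKM in TrspA37G liver, against 961, 2193 and 2394 RPKM in wild-type liver. The genotypes are farther apart there than over the whole mRNA, so a quotient within the window would differ less between them. It was not taken.

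Most Gpx1 footprints lay on the 18 nt between the windows, 3.30% of the coding window. They were 90.2%, 79.3% and 73.5% of its footprints in TrspA37G liver at 0, 0.1 and 2.0 ppm, against 88.6%, 69.7% and 72.4% in wild-type liver. The 95% intervals (Clopper-Pearson) were 89.3% to 91.1%, 78.4% to 80.2% and 72.4% to 74.6% in TrspA37G liver, against 88.0% to 89.1%, 69.3% to 70.1% and 72.0% to 72.8% in wild-type liver. The share was highest without selenium in both genotypes. Their density was 7753, 11090 and 11285 RPFKM in TrspA37G liver, against 25700, 60498 and 98886 RPFKM in wild type. Relative to the 5' window, which lies just upstream, this zone was 77.9, 53.5 and 37.1 times as dense in TrspA37G liver, against 71.5, 63.9 and 42.7 times in wild-type liver. The ratio was lower at each step of selenium in both genotypes, with no step of 1.5-fold. It was not divided by the same ratio of the mRNA reads, so its steps and the order of genotypes carry any difference in those reads. The density itself was higher at each step in wild type, and in TrspA37G liver at 0.1 against 0 ppm; at 2.0 against 0.1 ppm TrspA37G liver had 1.02 times the density (0.98 to 1.06), within counting error.

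The mRNA libraries also had more reads on these 18 nt than their length gives. They were 21.9%, 27.1% and 26.8% of the mRNA reads in the coding window in TrspA37G liver, against 18.2%, 22.6% and 22.6% in wild-type liver. The 95% intervals of these shares reached at most 1.26 percentage points to either side. Per nt this was 8.22, 10.9 and 10.7 times the rest of the window in TrspA37G liver, against 6.54, 8.57 and 8.55 times in wild-type liver. The footprint pile was larger still: divided by that of the mRNA reads, its density relative to the rest of the window was 33.0, 10.3 and 7.59 in TrspA37G liver, against 34.7, 7.86 and 9.01 in wild-type liver. The part of the mRNA pile in the footprint pile was not tested. Among other genes, Selh, a nuclear redox protein, had 55% to 76.9% of its footprints in the zone. This covers the 5 libraries where its coding window held at least 10, and rests on 13 to 80 footprints each. Of its mRNA reads 16.7% to 46.7% lay there, in the 4 libraries with at least 10, which held 10 to 30 each. Sepx1 had 36.8% to 47.3% of its footprints and 23.2% to 29.2% of its mRNA reads there. Gpx4 had 1.05% to 3.16% of its footprints and 4.30% to 6.34% of its mRNA reads in the zone.

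**Figure D2:**
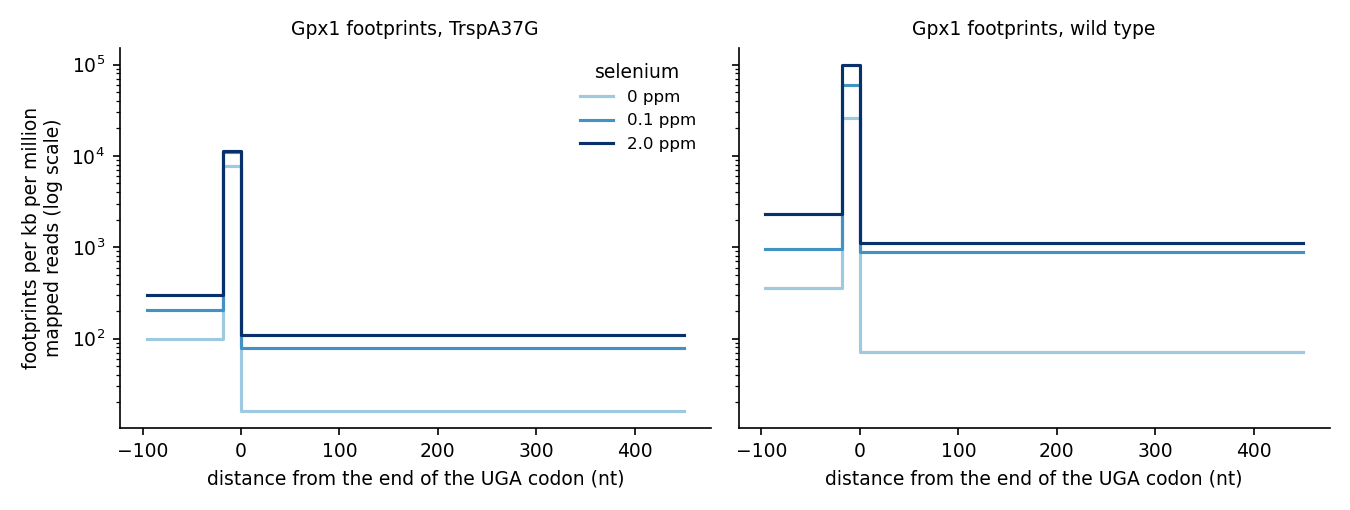
Mean Gpx1 footprint density (log axis, RPFKM) in the 5' window, the 18 nt between the windows and the 3' window, by distance from the end of the UGA codon in nt; each line is 1 library. In TrspA37G liver the lines of 0.1 and 2.0 ppm nearly coincide between the windows (11090 and 11285 RPFKM), while in wild-type liver they stand apart (60498 and 98886 RPFKM).

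Footprints 3' of the UGA come from ribosomes that have passed it, or started beyond it. TrspA37G liver had 16.3, 79.8 and 110 RPFKM in the 3' window at 0, 0.1 and 2.0 ppm, against 70.6, 890 and 1105 RPFKM in wild-type liver. The genotypes overlapped across diets, since wild type without selenium was below TrspA37G at 0.1 ppm. TrspA37G liver was 4.33-fold lower at 0 ppm (3.71 to 5.06), 11.1-fold lower at 0.1 ppm (10.5 to 11.9) and 10.04-fold lower at 2.0 ppm (9.43 to 10.7). Of the genes compared 72.7%, 50% and 61.5% were called lower, with Gpx1 the lowest at 0.1 and 2.0 ppm. Scaled to the median of the genes, the genotype log2 ratios were -0.73, -2.63 and -2.08 at 0, 0.1 and 2.0 ppm, in place of -2.11, -3.48 and -3.33, all still called lower. Without selenium the 3' footprints were 4.89-fold lower than at 0.1 ppm in TrspA37G liver (4.22 to 5.69) and 12.6-fold lower in wild type (11.7 to 13.6), in which 81.8% and 76.9% of genes were called lower. In TrspA37G liver that call was lost when the 2 libraries were scaled to the median of the genes, which left a log2 ratio of -0.23; in wild type this left -2.57, still called. The median over 11 genes was itself -2.06 in TrspA37G liver, and over 13 genes -1.09 in wild type.

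The ratio of 3' to 5' footprint density is taken within a library, so that scaling between libraries leaves it as it is. It had its highest value in wild-type liver at 0.1 ppm. It was 0.164, 0.385 and 0.362 in TrspA37G liver at 0, 0.1 and 2.0 ppm, against 0.197, 0.940 and 0.477 in wild-type liver. Without selenium it was 2.35-fold lower than at 0.1 ppm in TrspA37G liver (1.89 to 2.91) and 4.78-fold lower in wild type (4.27 to 5.36), with 70% and 66.7% of genes called lower. At 2.0 against 0.1 ppm the ratio was 1.06-fold lower in TrspA37G liver, with an interval that spanned 1, from 0.92 to 1.24. In wild type it was 1.97-fold lower (1.86 to 2.09), and Gpx1 was the 1 gene of 12 (8.33%) called lower there.

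Between genotypes the ratio differed most at 0.1 ppm, where TrspA37G liver was 2.44-fold lower (2.17 to 2.74) and Gpx1 was again the 1 gene called lower, of 11 (9.09%). A lower ratio was not particular to Gpx1. The median log2 ratio of all 11 genes was -0.47, and Selh had -2.32 with an interval that spanned 0 (-4.66 to 0.01). At 0 ppm the Gpx1 ratio was 1.20-fold lower (0.97 to 1.49), and at 2.0 ppm 1.32-fold lower (1.18 to 1.47), neither a call. The mRNA reads were themselves more 3'-weighted in TrspA37G liver: their own 3' to 5' ratio was 1.99, 1.99 and 1.90 at 0, 0.1 and 2.0 ppm in TrspA37G liver, against 1.48, 1.65 and 1.57 in wild-type liver, and the genotypes did not overlap. Divided by it, the footprint ratio became 0.0822, 0.194 and 0.190 in TrspA37G liver, against 0.133, 0.570 and 0.304 in wild-type liver. On that scale the log2 ratio of TrspA37G to wild type was -0.69 at 0 ppm and -0.68 at 2.0 ppm, in place of -0.26 and -0.40, so that both passed 1.5-fold.

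**Figure D3:**
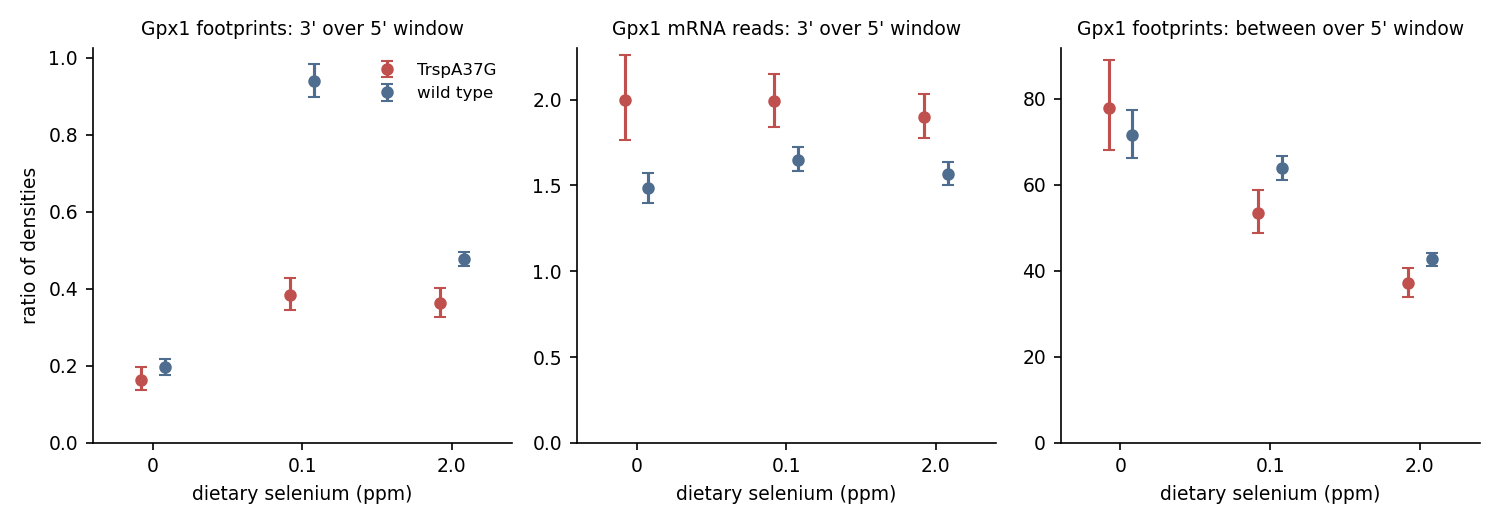
Ratios of densities within each library (linear axes from 0) against dietary selenium in ppm; points are single libraries, bars 95% counting intervals. The 3' to 5' footprint ratio of wild-type liver at 0.1 ppm (0.940) is the highest, the mRNA ratio is higher in TrspA37G liver on every diet, and the density between the windows relative to the 5' window is lowest at 2.0 ppm in both genotypes.

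The change in 3' footprints is the sum, on the log2 scale, of the changes in mRNA, in 5' footprints per mRNA and in the 3' to 5' ratio. The mRNA is taken over its whole length, so the parts carry any difference in how its reads spread along it. For TrspA37G against wild type at 0 ppm the total of -2.11 was made of -1.35, -0.51 and -0.26 in that order, so that mRNA was the largest part. At 0.1 ppm the parts of the total of -3.48 were nearly equal, at -1.05, -1.14 and -1.29. At 2.0 ppm, where the total was -3.33, the 5' footprints per mRNA were the largest part, with -1.04, -1.89 and -0.40.

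The diet comparisons divided in another way. For 0 against 0.1 ppm the total was -2.29 in TrspA37G liver, with -1.68 in mRNA, 0.62 in 5' footprints per mRNA and -1.23 in the 3' to 5' ratio. In wild type the total of -3.65 came with -1.38 in mRNA, -0.01 in 5' footprints per mRNA (interval -0.14 to 0.11) and -2.26 in the ratio. For 2.0 against 0.1 ppm, wild-type liver had opposed parts, 1.22 in 5' footprints per mRNA and -0.98 in the ratio, which left a total of 0.31 with 0.07 in mRNA. That total was -0.041 when scaled to the housekeeping genes. TrspA37G liver had 0.48 and -0.09 in these parts and 0.07 in mRNA, and a total of 0.46.

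Gpx4 had another makeup in wild type without selenium. Its 3' footprints had a log2 ratio of -1.08, with 0.36 in mRNA, -0.21 in 5' footprints per mRNA and -1.23 in the 3' to 5' ratio, so that its mRNA was not lower. For TrspA37G against wild type at 0.1 ppm the parts of Gpx4 were 0.05, 0.10 and -0.33, and those of Sepx1 -0.54, -1.58 and -0.02. Gpx1 had -1.05, -1.14 and -1.29 there, so that its ratio across the UGA was the part in which it and Sepx1 were farthest apart; these differences between genes were not tested.

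**Figure D4:**
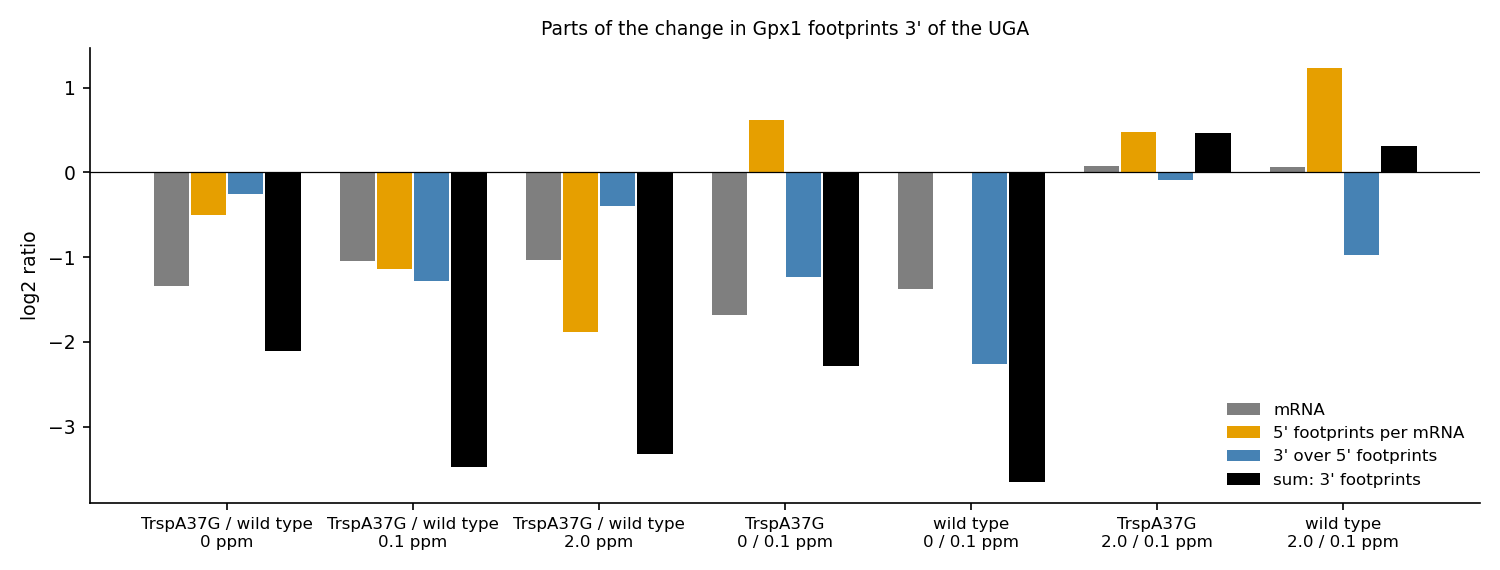
Log2 ratios of Gpx1 in 7 comparisons of 2 libraries: mRNA, 5' footprints per mRNA, the 3' to 5' footprint ratio and their sum, the 3' footprints. The genotype comparisons have all parts below 0, and wild type at 2.0 against 0.1 ppm has parts of opposite sign (1.22 and -0.98).

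Footprints over the whole coding window follow the 18 nt near the UGA more than the other codons. They were 283, 461 and 506 RPFKM in TrspA37G liver at 0, 0.1 and 2.0 ppm, against 957, 2863 and 4501 RPFKM in wild-type liver. Their quotient with mRNA, the translational efficiency, was 0.807, 0.410 and 0.427 in TrspA37G liver, against 1.07, 1.23 and 1.85 in wild-type liver. With the 18 nt left out, the quotient of TrspA37G liver was no longer highest without selenium. It became 0.0815, 0.0877 and 0.117 in TrspA37G liver, against 0.127, 0.386 and 0.527 in wild-type liver. The TrspA37G intervals at 0 and 0.1 ppm overlapped (0.0739 to 0.0899 and 0.0832 to 0.0924), so the order of these diets is not established. TrspA37G liver without selenium, called 1.97-fold higher than at 0.1 ppm with these bases (1.87 to 2.07; 3 of 20 genes called higher, 15%), had a log2 ratio of -0.11 without them. In wild type the same comparison had a log2 ratio of -0.20 with them and -1.60 without. The -0.20 was no call, and turned to 0.31 when scaled to the median of the genes and 0.36 when scaled to the housekeeping genes.

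The response of Gpx1 to diet differed between the genotypes in several of these measures, by ratios of ratios whose intervals again cover counting error only. For 0 against 0.1 ppm, the log2 response of 3' footprints in TrspA37G liver minus that in wild type was 1.36 (interval 1.13 to 1.60), the TrspA37G response being the smaller, and for the 3' to 5' ratio it was 1.03 (0.67 to 1.38). For mRNA the difference was -0.30 (-0.35 to -0.24), below the 1.5-fold needed for a call. For 2.0 against 0.1 ppm, the difference was -0.74 for 5' footprints (-0.93 to -0.54), again a smaller response in TrspA37G liver, and 0.89 for the 3' to 5' ratio (0.66 to 1.12). For mRNA at 2.0 ppm it was 0.01 (-0.03 to 0.05).

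Across the 6 libraries of a kind, limma was fitted to log2 values with genotype and diet as additive terms, with Benjamini-Hochberg adjustment over all genes that passed the filter on reads. The spread is then what additivity leaves with 2 residual degrees of freedom, moderated over genes. After moderation the total degrees of freedom were 31.2 for 5' footprints. They were 5.87 for mRNA, 3.77 for coding-window footprints, 4.52 for 3' footprints, 9.03 for the 3' to 5' ratio and 3.61 for efficiency. The size of limma p-values is therefore not comparable between measures. Gpx1 mRNA was lower in TrspA37G, with a log2 difference of -1.15 ± 0.18 (SE, limma adjusted p = 0.00698; 20% of 20 genes called lower). The 5' footprints had a log2 difference of -2.32 ± 0.30 (limma adjusted p = 1.57e-07; 36.8% of 19 genes called lower). Coding-window footprints had one of -2.51 ± 0.33 (limma adjusted p = 0.00772; 30% of 20 genes), and were not called without either library of 0.1 ppm (limma adjusted p = 0.0677). The 3' footprints had one of -2.97 ± 0.38 (limma adjusted p = 0.00642; 27.3% of 11 genes called lower), a call that was lost without either library of 2.0 ppm (limma adjusted p = 0.0983). Each of these 4 measures was lower in TrspA37G in 3 of 3 diets. Translational efficiency had a log2 difference of -1.37 ± 0.39 and the 3' to 5' ratio one of -0.65 ± 0.35, neither of them past the threshold of 0.05 (limma adjusted p = 0.145 and 0.235), though both were without either library of 0 ppm (limma adjusted p = 0.0475 and 0.0455). An exact two-sided permutation of genotypes within the diets cannot go below p = 0.25, which is the value it gave for each.

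For 0 against 0.1 ppm the same fit gave -1.53 ± 0.22 for mRNA (limma adjusted p = 0.0056; 10% of genes called lower), not called without the TrspA37G library of 0.1 ppm (limma adjusted p = 0.0821). It gave -1.23 ± 0.37 for 5' footprints (limma adjusted p = 0.00784; 26.3% of genes), not called without the TrspA37G library of 0.1 ppm (limma adjusted p = 0.304) or the wild-type one (0.151). It gave -2.97 ± 0.47 for 3' footprints (limma adjusted p = 0.0114; 72.7% of genes), not called without either library of 2.0 ppm (limma adjusted p = 0.0972) or wild type at 0.1 ppm (0.064). The 3' to 5' ratio had -1.74 ± 0.42 (limma adjusted p = 0.0158; 60% of 10 genes), and was not called when any 1 of the 4 libraries of 0.1 and 2.0 ppm was left out (limma adjusted p between 0.0632 and 0.192). Coding-window footprints had -1.14 ± 0.40 and were not called (limma adjusted p = 0.110), but were without the TrspA37G library of 0 ppm (limma adjusted p = 4.7e-05). For 2.0 against 0.1 ppm no measure of Gpx1 passed, with limma adjusted p between 0.321 and 0.940; without either library of 0 ppm the 5' footprints did (limma adjusted p = 0.0212). No other gene passed either (0% of those tested in each measure), while at an unadjusted p under 0.05 limma had 1 gene each in coding-window and 5' footprints and 0 in the other 4 measures; in 5' footprints that gene was Gpx1.

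Gpx1 was among the most abundant selenoprotein mRNAs of liver. By RPKM it ranked 4 of 23 in TrspA37G liver at 0 ppm, and 2 of 23, after Sepp1, in the other 5 libraries. In 3' footprints it was the highest gene in wild-type liver at 0.1 and 2.0 ppm, where Sepp1 had 714 and 852 RPFKM. In TrspA37G liver at 0 ppm it ranked 7. Gpx1 took 18.5%, 19.3% and 19.3% of all coding-window footprints of the 23 genes in TrspA37G liver at 0, 0.1 and 2.0 ppm, against 33.4%, 45.9% and 53.6% in wild-type liver. Its share of their mRNA reads was 6.54%, 14.8% and 14.6% in TrspA37G liver, against 11.3%, 22.9% and 21.3% in wild-type liver. The 95% intervals of these shares reached at most 0.495 percentage points to either side.

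Of the 4 glutathione peroxidases, 3 had the reads needed for a comparison, Gpx2 being the exception. In mRNA, 1 of the 3 was called lower without selenium in each genotype, and it was Gpx1. In 3' footprints, 3 of 3 were called lower without selenium in TrspA37G liver, with a median log2 ratio of -2.29 beside 81.8% called and a median of -2.06 for all 11 genes. That median of 3 is the value of Gpx1 itself. The call of Gpx3 rests on 1 footprint in TrspA37G liver at 0 ppm, with an interval from 1.72-fold to 497-fold. In wild type 2 of 3 were called lower, with a median of -1.08, the value of Gpx4, beside 76.9% called and a median of -1.09 for all 13. These counts are near the share over all genes. Among the genes whose UGA precedes the last exon junction, 14 of 15 could be compared in mRNA. For these, 4 were called lower without selenium in TrspA37G liver, with a median of -0.52, beside 30% called and a median of -0.44 for all 20 genes. In wild type 3 were, with a median of -0.29, beside 20% called and a median of -0.24. Both counts are near the share over all genes. The 6 stress-related selenoproteins, to which Gpx1 is counted, had 2 members called lower in TrspA37G liver without selenium, with a median of -0.96, and 3 in wild type, with a median of -0.71. The 5 housekeeping ones had 1 in TrspA37G liver, with a median of -0.16, and 0 in wild type, with a median of -0.26. The shares to read these counts against are again 30% of 20 genes in TrspA37G liver, which 2 of 6 is near, and 20% in wild type.

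The genes whose mRNA was most like that of Gpx1 over the 6 libraries were Sepp1 (Pearson r = 0.98 of log2 values), the small redox protein Sepw1 (r = 0.96) and Selh (r = 0.95, with as few as 2 reads in a library). For 3' footprints they were Sepw1, Sepp1 and Sephs2, the enzyme that makes selenophosphate (each r = 0.97). These are descriptions over libraries that share 1 scaling each, and the Pearson r of Gpx4 mRNA was -0.50.

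**Figure D5:**
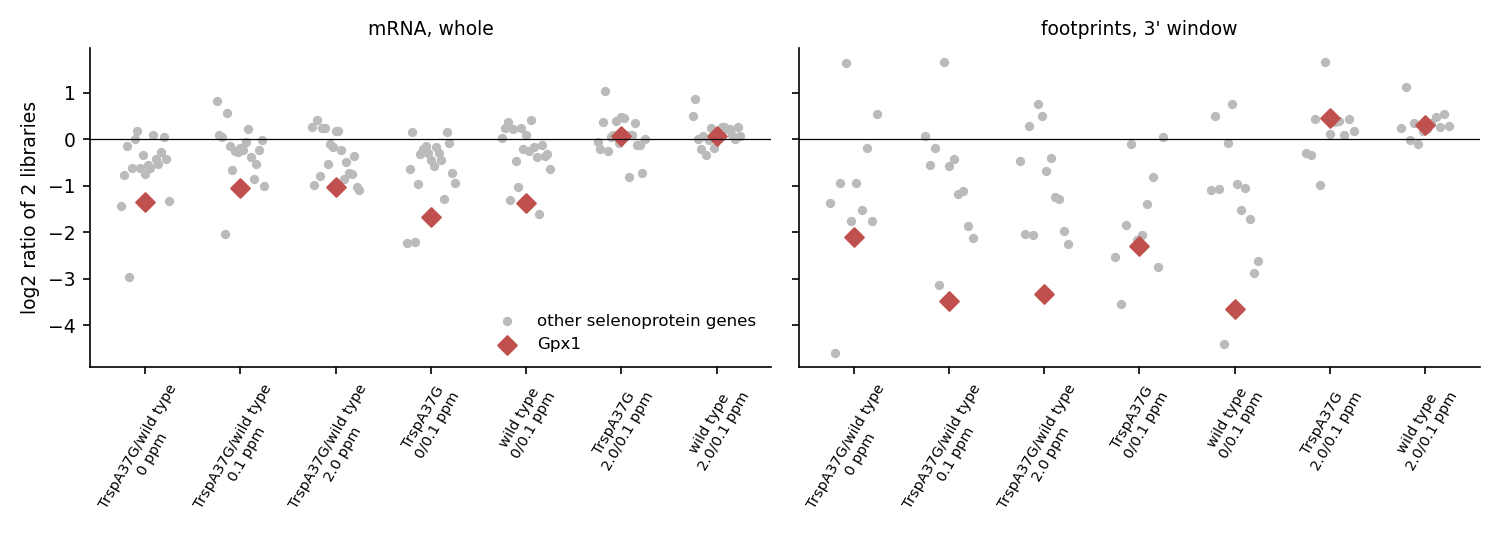
Log2 ratios of 2 libraries for every selenoprotein gene with enough reads, in mRNA and in 3' footprints, with Gpx1 as a diamond; names on the axis give the comparison. Gpx1 is the lowest gene in 3' footprints of TrspA37G against wild type at 0.1 and 2.0 ppm (-3.48 and -3.33), and near the median of both panels at 2.0 against 0.1 ppm in wild type.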

How the data were processed

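Reads were mapped with Bowtie to mm9, per the submitters' processing notes. Per the file headers, the authors deposited RPKM values for mRNA and the same unit counted over footprints (RPFKM), over the whole mRNA, the coding sequence without its first 15 and last 3 codons, and its parts 5' and 3' of the UGA. A footprint column is called mRNA in one deposited header line and RPFKM in the unit line, and was read as RPFKM. Per the labels, livers were homogenised with cycloheximide, footprints made with RNase 1 and isolated as monosomes, and libraries made with a small RNA kit. For versions and multiply mapped reads, the treatment is not stated in the sources used here.

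The mapped reads per library were inferred as the smallest number that gave whole reads for most coding windows. All 795 values above 0 then gave whole reads within 0.001. For 647 the region length came from the annotation. For the others, among them the whole Gpx1 mRNA (1066 nt), it was the smallest that gave whole reads. Whole reads were thus forced for these values and are no check on them. Ratios used no pseudocount and needed 10 reads over 2 libraries and 1 in each. Intervals were exact conditional (Clopper-Pearson) for 1 value per library and log-normal for ratios of ratios. Python 3.11.15, scipy 1.17.1 and limma 3.58.1 (R 4.3.3) were used, limma on log2 RPKM and RPFKM of genes with 10 reads over the 6 libraries and 1 in each. The scripts were tested on simulated data. Genes were named as Gpx1, the members of 4 lists, and the 3 genes most correlated with Gpx1; Sepx1 and Sephs2 came from these. The members and lists were chosen with earlier results of these data known.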

Additional observations from a re-analysis of the deposited data

Results flagged for a closer look

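Measures of Gpx1 whose log2 response to diet was above 0 in one genotype and below 0 in the other, as deposited, are given here; with 1 library per group, these differences were not tested across animals. Translational efficiency at 0 against 0.1 ppm had a log2 ratio of 0.98 in TrspA37G liver and -0.20 in wild type, a difference of 1.18. The wild-type value turned to 0.31 and 0.36 when scaled to the median and to the housekeeping genes, the sign of TrspA37G liver, with differences of 0.97 and 1.28. Without the 18 nt near the UGA both genotypes were below 0, with -0.11 in TrspA37G liver and -1.60 in wild type. The TrspA37G quotients behind the -0.11 had intervals that overlapped, 0.0739 to 0.0899 at 0 ppm and 0.0832 to 0.0924 at 0.1 ppm. The sign of that value is thus not established. Footprints in the 5' window per mRNA, for the same diets, had 0.62 in TrspA37G liver and -0.01 in wild type, a difference of 0.64. The interval of the wild-type value spans 0 (-0.14 to 0.11), and under the 2 scalings it was 0.19 and 0.20, so that its sign is not established. The density of the 3' window relative to the 18 nt before it, at 2.0 against 0.1 ppm, had 0.44 in TrspA37G liver and -0.40 in wild type, a difference of 0.83. The density of those 18 nt relative to the rest of the coding window, for the same diets, had -0.47 in TrspA37G liver and 0.19 in wild type, a difference of -0.66.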

How the results depend on the processing

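Of 272 alternatives for ratios of Gpx1 between libraries and for differences between responses, 239 kept the call. Among these, 12 turned sign, none of them a called value. Of the others, 22 were weaker, 6 stronger and 5 reversed. Values are log2 ratios; within a genotype they set 0 or 2.0 ppm against 0.1 ppm. One scaling was to the median of the genes, which are all selenoproteins and so share changes with Gpx1 by construction. With it, TrspA37G liver at 0 against 0.1 ppm gave 0.38 for coding-window footprints, -0.42 for 5' and -0.23 for 3' footprints. For 3' footprints per mRNA it gave 0.64. As deposited these values were -0.70, -1.06, -2.29 and -0.61, all called lower, so that the first and the last turned sign. For TrspA37G against wild type at 0 ppm, 3' footprints per mRNA became 0. That value was fixed in advance, because Gpx1 was itself the median gene there, ranking 6 of 11. Wild type at 2.0 against 0.1 ppm gave 0.45 for coding-window footprints and 0.46 for efficiency, and the difference in 5' response at 0 ppm became a call, 0.72. With scaling to the housekeeping genes the coding-window, 3' and 3' per mRNA values of TrspA37G liver at 0 ppm were -0.0083, -0.45 and 0.87. The 3' per mRNA genotype ratio at 0 ppm was 0.0223. It and the 0.87 were thus above 0, against a called -0.77 and -0.61 as deposited. Wild type at 2.0 ppm had 0.41 for coding-window footprints and 0.44 for efficiency. The difference in coding-window response at 2.0 ppm was -0.62. Without the 18 nt, efficiency was -0.11 in TrspA37G liver and -1.60 in wild type at 0 ppm, 0.45 in wild type at 2.0 ppm and -0.64 between genotypes at 0 ppm, and coding-window footprints of wild type at 2.0 ppm 0.52. Divided by the mRNA reads, the genotype ratios were -0.69 and -0.68 for 3' to 5' at 0 and 2.0 ppm, and 0.39 for the 18 nt against the rest at 0.1 ppm. A fold of 2 ended calls of -0.70, 0.98, 0.62 and -0.61 in TrspA37G liver at 0 ppm (coding-window footprints, efficiency, 5' and 3' footprints per mRNA), of 0.65, 0.59, -0.98 and 0.71 in wild type at 2.0 ppm (coding-window footprints, efficiency, 3' to 5' ratio, the 18 nt), and of -0.77 and 0.74 between genotypes (3' per mRNA at 0 ppm, the 18 nt against the rest at 0.1 ppm). In limma, leaving diet out ended the genotype calls of mRNA (-1.15), 5' (-2.32) and 3' footprints (-2.97; limma adjusted p = 0.367, 0.0782 and 0.111). Scaling to the median left genotype differences of -1.85 in coding-window and -2.02 in 3' footprints, still called (limma adjusted p = 0.0377 and 0.00879), and ended the calls at 0 against 0.1 ppm of 5' (-0.71) and 3' footprints (-1.30; limma adjusted p = 0.185 and 0.159). A pseudocount of 1 made calls of coding-window footprints at 0 ppm (-1.14, also with no filter) and the genotype difference in efficiency (-1.37). Leaving out 1 library in turn changed 21 of 108 calls in limma. The ranges were -1.68 to -1.38 for mRNA, -1.71 to -0.57 for coding-window footprints, -1.58 to -0.87 for 5' footprints, -3.62 to -2.33 for 3' footprints and -2.22 to -1.27 for their ratio at 0 ppm, 0.47 to 1.38 for 5' footprints at 2.0 ppm, and between genotypes -2.89 to -2.20 for coding-window footprints, -3.40 to -2.72 for 3' footprints, -0.84 to -0.33 for the ratio and -1.85 to -0.998 for efficiency. The cause of these changes was not tested. No paired analysis was possible because the labels number no replicates, so that genotypes were matched by diet alone, in the additive fit and the exact permutation. Counting error was widest for 5' and 3' windows in TrspA37G liver at 0 ppm, which held 224 and 212 footprints.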

Other observations

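Other Gpx1 transcripts in the annotation start 3' of the UGA. Of the 4 annotated, 2 have their start codon in frame at codon 57 of the main coding sequence, and 1 keeps its intron. The deposited values give 1 number per window, so footprints from these starts cannot be told apart from those of ribosomes that passed the UGA. The mRNA reads of Gpx1 were also concentrated in the coding window, which is 51.2% of the mRNA length. It held 93.5%, 94.1% and 93.6% of the mRNA reads in TrspA37G liver at 0, 0.1 and 2.0 ppm, against 92.1%, 93.7% and 93.2% in wild-type liver, with 95% intervals (Clopper-Pearson) of at most 0.748 percentage points to either side.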
